A study of Homo sapiens with 6 samples.

Results

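The genes described here are 44 genes of the hypoxia response and glycolysis, chosen by symbol for their place in these pathways, with earlier results of these data known, out of 60504 genes in the count table. They comprise 7 genes of the hypoxia-inducible factor (HIF) and its oxygen sensing, 15 HIF targets outside glycolysis, 4 glucose and lactate transporters, 2 phosphofructokinase regulators and 16 glycolytic enzymes. RNA was sequenced from SK-MEL-28, an established human melanoma cell line, in 3 libraries labelled EV (control, to which the EV plasmid, the control without HDAC8, had been added) and 3 libraries labelled HDAC8 (to which an HDAC8 plasmid had been added). HDAC8 is a class I lysine deacetylase. Per the study's methods the plasmids were introduced with a lipid reagent and the cells were kept in hygromycin. The labels give no other treatment, so neither group is described as having been exposed to low oxygen, and hypoxia is a stress that the study applied in other experiments. The comparison asks whether transcripts of oxygen sensing and glucose use differed between the labels in growing cells. The labels number the replicates 1 to 3 within each group, and nothing states that they came from separate cultures, so the p-values measure the spread between these libraries, which may be technical.

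HIF is a pair of an alpha subunit (HIF1A or EPAS1) with ARNT. When oxygen is present, the prolyl hydroxylases EGLN1, EGLN2 and EGLN3 mark the alpha subunit, VHL recruits the marked protein for degradation, and HIF targets are low. When oxygen falls, HIF binds a short core sequence in its targets, among them genes for glucose uptake, glycolysis, blood vessel growth and pH control, and many tumour cells use glycolysis even where oxygen is present. Since HIF1A is controlled largely at the level of the protein, its mRNA is not a readout of HIF activity.

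The libraries held 20850018 to 29822917 counts in all, so that a detection floor of 3 counts stands for 0.102 to 0.148 CPM (counts scaled to the normalised size of each library), counting error only. HDAC8, the introduced gene, was at 16.6, 15.2 and 11.8 CPM in the EV libraries and 14.2, 15.2 and 13.4 CPM in the HDAC8 libraries (log2 fold change -0.02, standard error 0.13, adjusted p = 0.924). The groups overlapped for HDAC8 mRNA (95% interval of the log2 fold change -0.31 to 0.26), whether reads from the plasmid were counted on this gene is not stated in the sources used here, and every direction below follows the labels, with the EV libraries as the reference. Of 8 melanocyte markers, 7 had at least 10 counts in every library, 4 were higher and 3 lower in the HDAC8 libraries, and their sum, most of it PMEL, was 6470 to 6859 CPM in the EV libraries and 7492 to 8016 CPM in the HDAC8 libraries. Markers of other cell types summed to 42.4 to 44.7 and 53.9 to 58.7 CPM for 6 fibroblast genes, most of it LUM, to 28.3 to 29.3 and 24.9 to 29.7 CPM for 4 immune genes, most of it CD68 with CD3E at 0, and to at most 3.80 CPM for 4 endothelial and 0.244 CPM for 4 epithelial genes. The part of these shifts in the results was not tested, and fewer cells of a kind and less RNA per cell cannot be told apart in bulk RNA.

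Promoter sequences are shown for 5 of the genes, because a HIF-bound core is a short DNA word that can be looked for directly. The windows are RefSeq promoters on GRCh38.p14, 300 bases each around an annotated start site, all on the plus strand and written 5′ to 3′. Capitals mark the core ACGTG or GCGTG on either strand, and a core within CACGTG, the E-box read by other basic helix-loop-helix factors such as MYC, cannot be told from that E-box. HIF1A (chr14:61695263-61695562) is shown as a member that was higher. EPAS1 (chr2:46297157-46297456), ADM (chr11:10304823-10305122) and PFKFB3 (chr10:6202682-6202981) are shown as members that were lower, and LDHA (chr11:18394313-18394612) as an enzyme gene whose level hardly differed. Where a gene had several windows, the one with the most cores was taken.
HIF1A: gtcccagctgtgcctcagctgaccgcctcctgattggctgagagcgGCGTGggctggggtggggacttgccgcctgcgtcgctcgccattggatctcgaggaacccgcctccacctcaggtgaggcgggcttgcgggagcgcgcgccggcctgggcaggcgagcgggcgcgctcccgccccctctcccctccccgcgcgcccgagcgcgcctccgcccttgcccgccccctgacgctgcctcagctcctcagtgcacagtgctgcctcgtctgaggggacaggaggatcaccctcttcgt
EPAS1: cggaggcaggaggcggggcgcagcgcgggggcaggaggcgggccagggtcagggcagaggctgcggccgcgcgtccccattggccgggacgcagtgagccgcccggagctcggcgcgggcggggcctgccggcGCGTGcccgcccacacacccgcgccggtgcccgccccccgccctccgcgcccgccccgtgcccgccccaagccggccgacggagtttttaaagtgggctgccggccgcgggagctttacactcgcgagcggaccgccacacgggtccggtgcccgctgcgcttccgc
ADM: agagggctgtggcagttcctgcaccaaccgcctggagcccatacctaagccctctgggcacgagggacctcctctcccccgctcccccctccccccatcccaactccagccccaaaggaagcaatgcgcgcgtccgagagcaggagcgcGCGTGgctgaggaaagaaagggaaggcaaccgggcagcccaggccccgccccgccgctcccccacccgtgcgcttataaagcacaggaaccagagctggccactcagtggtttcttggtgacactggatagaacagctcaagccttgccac
PFKFB3: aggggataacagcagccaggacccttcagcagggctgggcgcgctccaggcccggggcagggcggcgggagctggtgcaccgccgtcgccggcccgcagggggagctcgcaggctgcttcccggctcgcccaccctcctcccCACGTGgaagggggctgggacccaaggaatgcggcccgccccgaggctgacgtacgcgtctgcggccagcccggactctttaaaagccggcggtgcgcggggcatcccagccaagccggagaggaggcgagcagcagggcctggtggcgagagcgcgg
LDHA: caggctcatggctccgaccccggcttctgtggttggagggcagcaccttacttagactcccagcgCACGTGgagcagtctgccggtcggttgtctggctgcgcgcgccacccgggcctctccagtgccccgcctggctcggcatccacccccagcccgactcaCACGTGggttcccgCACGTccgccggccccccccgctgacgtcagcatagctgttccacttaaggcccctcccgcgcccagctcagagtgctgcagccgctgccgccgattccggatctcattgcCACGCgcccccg

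The core lay at position -204 from the start site in HIF1A, -117 in EPAS1 and -101 in ADM, each time once. HIF1A had 2 windows, of which 1 held a core. PFKFB3 held 2 overlapping matches at -108 and -107, both within an E-box, and LDHA held 6, of which 4 were within an E-box. In all, 37 of the 44 genes had a window, and VHL, VEGFA, BNIP3L, NDRG1, LOXL2, SLC2A3 and SLC16A1 had none. A core was found in at least 1 window of 33 of these 37 genes (89.2%), against 69.6% of 10774 tested genes with a window and 52.4% of all 27305 genes with a window. Among the members, it was found in 10 of 11 that were lower (90.9%), in 3 of 3 that were higher and in 19 of 22 that did not pass the test (86.4%). A gene counted if any of its windows held a core, which favours genes with several windows. HK1 and PFKM, for example, had 7 windows each, of which 2 held a core. Of all 35116 windows, 48.45% held a core. These shares were not tested against each other, and a match is a description of the letters and not of a bound site.

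Of the 44 genes, 43 passed the filter on low counts and entered a quasi-likelihood fit in edgeR, whose p-values were adjusted by the Benjamini-Hochberg method over 16195 genes. At an adjusted p below 0.05, 14 were lower in the HDAC8 libraries (32.6%, against 11.7% of all genes tested) and 3 were higher (6.98%, against 11.1%). The count of lower members fell to 9 without EV replicate 1, where 7.61% of all genes were lower, and to 8 without EV replicate 3, where 7.80% were. Most of these genes are well expressed: 39 of them had a mean of at least 10 CPM and held all 17 calls, and of all genes at that level 15.8% were lower and 14.1% were higher. The median log2 fold change of the 43 genes was 0.00, with 20 above and 23 below 0, and that of all genes tested was 0.01. When a log2 fold change beyond 0.58 in either direction was also asked for, the threshold used in the methods, 3 members remained, NDRG1, ADM and EPAS1, all lower (against 3.45% of all genes), and 0 were higher (against 4.07%). EPAS1 fell short of this fold without EV replicate 1 (log2 fold change -0.54). With no test, the 3 HDAC8 libraries lay wholly below the 3 EV libraries for 15 members (34.9%, against 19.4% of all genes) and wholly above for 8 (18.6%, against 18.7%). Lower members occurred in each of the 5 roles, as the plot of members by library shows, and higher members among the HIF subunits and the enzymes. No test of the list as a whole was made.

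**Figure D1:**
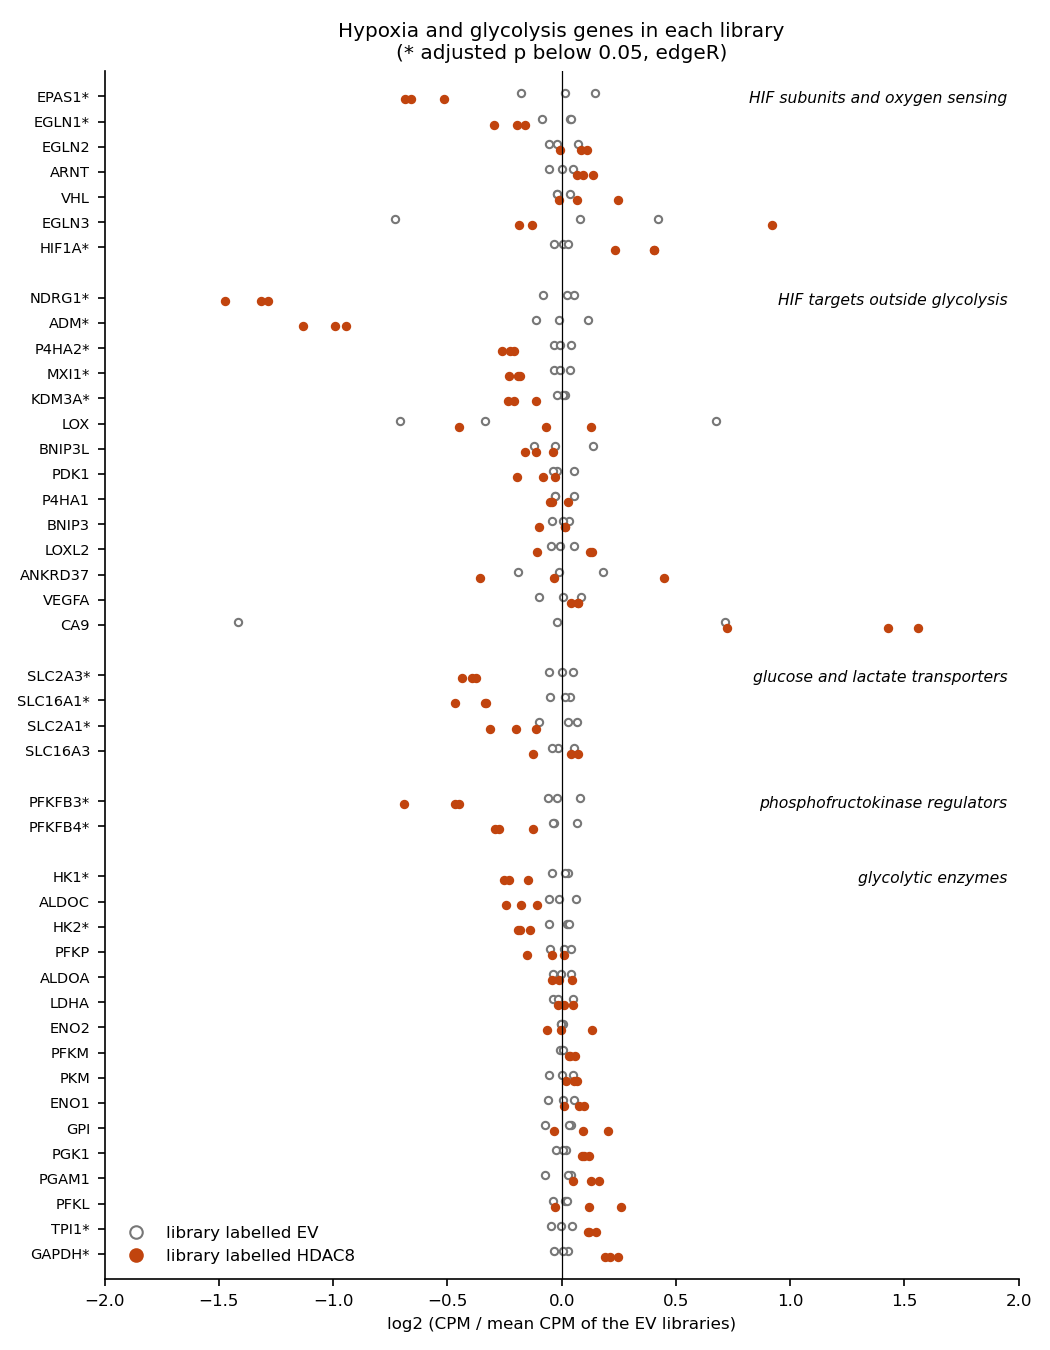
Each row is 1 tested gene and each point 1 library, on the x axis as the log2 ratio of its CPM to the mean CPM of the EV libraries; open grey points are EV libraries, filled points HDAC8 libraries, and asterisks mark an adjusted p below 0.05. Among the HDAC8 points, those of NDRG1 and ADM stand furthest to the left, and those of the transporters and phosphofructokinase regulators lie mostly left of 0. The glycolytic enzymes have log2 fold changes of -0.21 to 0.215, with some single libraries beyond these values.

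**Figure D2:**
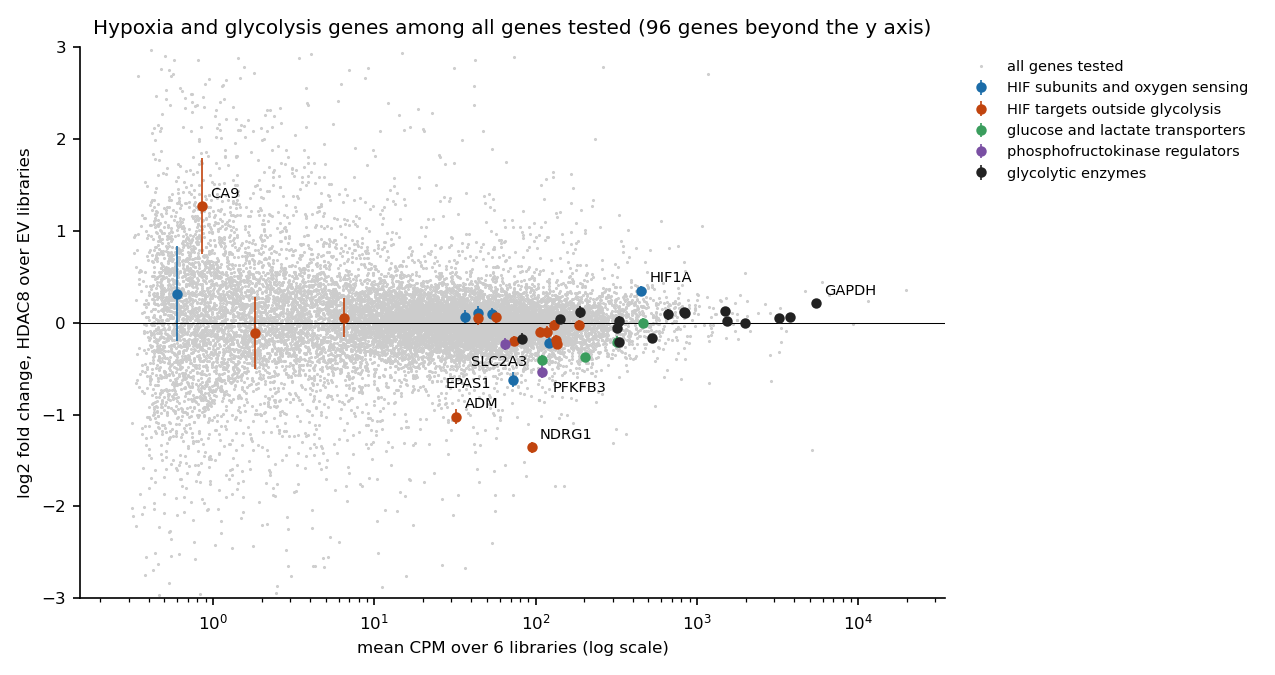
The x axis is the mean CPM over all 6 libraries on a log scale and the y axis the log2 fold change of HDAC8 over EV libraries, with grey points for all 16195 genes tested (96 lie beyond the axis) and coloured points with standard errors for the members by role. Most members are abundant genes close to 0, NDRG1 and ADM have the lowest log2 fold changes of the members (-1.36 and -1.02), and CA9 has a wide error (standard error 0.52).

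Among the HIF subunits and oxygen sensors, the 2 alpha subunits moved apart: HIF1A was higher and EPAS1 was lower. EGLN1, the main prolyl hydroxylase, was lower as well, and ARNT, VHL, EGLN2 and EGLN3 did not pass the test. HIF1A (ENSG00000100644, chr14:61695513-61748259 on GRCh38) was at 396.7, 385.3 and 402.2 CPM in the EV libraries and at 521.7, 522.1 and 463.6 CPM in the HDAC8 libraries. Every HDAC8 library lay above every EV library, with HDAC8 replicate 3 the closest, and the difference was 1.27-fold (log2 fold change 0.35, standard error 0.052, adjusted p = 0.000482). EPAS1 (ENSG00000116016, chr2:46293667-46386697), which encodes the other oxygen-regulated alpha subunit, was at 96.6, 77.2 and 88.1 CPM in the EV libraries and 54.3, 61.1 and 55.3 CPM in the HDAC8 libraries. The groups did not overlap, although EV replicate 2 lay well below the other EV libraries, and EPAS1 was 1.54-fold lower (log2 fold change -0.62, standard error 0.082, adjusted p = 0.000203). Per kilobase of canonical transcript, which allows a comparison between genes, the level of EPAS1 was 16.9 ± 1.89 CPM per kb (SD, n = 3) in the EV libraries and 11.0 ± 0.715 in the HDAC8 libraries, while that of HIF1A was 100 ± 2.20 and 127 ± 8.53, so HIF1A was the more abundant alpha subunit under both labels.

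EGLN1 was at 132.6, 121.9 and 133.1 CPM in the EV libraries and 115.5, 112.7 and 105.1 CPM in the HDAC8 libraries. All HDAC8 libraries were lower, by 0.22 on the log2 scale (log2 fold change -0.22, adjusted p = 0.016), but the adjusted p rose to at most 0.0841 when EV replicate 1 or EV replicate 3 was left out. EGLN2 was at 37.7, 35.5 and 34.6 CPM against 38.8, 35.7 and 38.1 CPM, and the groups overlapped (log2 fold change 0.06, adjusted p = 0.571). EGLN3, the prolyl hydroxylase whose gene is itself a HIF target, was close to the detection floor, with 7, 16 and 14 counts in the EV libraries and 30, 10 and 11 in the HDAC8 libraries. Its log2 fold change of 0.31 had a 95% interval from -0.82 to 1.44, so neither a rise nor a fall was detectable at this depth. ARNT was at 53.3, 49.6 and 51.5 CPM against 53.9, 56.6 and 54.9 CPM, a small shift without overlap that did not pass the test (log2 fold change 0.10, adjusted p = 0.278). VHL was at 43.4, 41.7 and 41.7 CPM against 50.2, 42.0 and 44.3 CPM, with overlap (log2 fold change 0.11, adjusted p = 0.353).

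Among the HIF targets outside glycolysis, 5 of 14 tested genes were lower (35.7%, against 11.7% of all genes tested) and 0 were higher (against 11.1%) at an adjusted p below 0.05 in edgeR. At an unadjusted p below 0.05, 1 of them, CA9, was higher, and DESeq2 as an alternative also called 0 of them higher. The median log2 fold change of the 14 genes was -0.10. The fall was uneven: NDRG1 and ADM were lower by more than any other member, while VEGFA, BNIP3 and P4HA1, which are also standard HIF targets, stayed within narrow intervals around 0. NDRG1 (ENSG00000104419), a stress-induced gene of differentiation and growth arrest whose product restrains metastasis in several tumour types, was at 141.1, 128.4 and 138.2 CPM in the EV libraries and 49.0, 54.6 and 55.7 CPM in the HDAC8 libraries. The groups were far apart, with a 2.56-fold lower level under the HDAC8 label (log2 fold change -1.36, standard error 0.065, adjusted p = 3.64e-08). ADM (ENSG00000148926, chr11:10305073-10307397), which encodes the vasodilator peptide adrenomedullin, was at 39.9, 42.7 and 46.7 CPM in the EV libraries and 19.7, 21.7 and 22.4 CPM in the HDAC8 libraries. Its level was 2.03-fold lower, without overlap (log2 fold change -1.02, standard error 0.084, adjusted p = 4.06e-06). Of the 4 genes within 2 Mb of NDRG1 with at least 10 CPM, 1 was higher and 1 was lower, with a median log2 fold change of -0.10. Of the 18 such genes near ADM, 0 were higher and 2 were lower, with a median of 0.00.

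The other 3 that were lower in this group were P4HA2, a collagen prolyl hydroxylase subunit, MXI1, an antagonist of MYC, and KDM3A, a histone H3 lysine demethylase. Their log2 fold changes were -0.23 (adjusted p = 0.00386), -0.20 (adjusted p = 0.0179) and -0.18 (adjusted p = 0.0194), each without overlap. MXI1 lost its call without EV replicate 3 or HDAC8 replicate 2 (adjusted p up to 0.0907), and KDM3A without any library but HDAC8 replicate 3 (up to 0.0761). P4HA1, the paralog of P4HA2, was at 195.7, 184.5 and 184.8 CPM against 182.6, 191.8 and 182.0 CPM. Its groups overlapped, and the 95% interval of its log2 fold change was -0.13 to 0.08. VEGFA, the main blood vessel growth factor, had an interval of -0.08 to 0.20, and BNIP3, a mitophagy receptor, one of -0.13 to 0.09. PDK1, a pyruvate dehydrogenase kinase, and BNIP3L, the paralog of BNIP3, both had a log2 fold change of -0.10 (adjusted p = 0.256 and 0.324). LOXL2, a lysyl oxidase that crosslinks collagen, had one of 0.05.

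Carbonic anhydrases 9 and 12 set the pH at the cell surface, and CA9 is widely used as a marker of hypoxia. CA9 had 4, 18 and 12 counts in the EV libraries and 43, 27 and 19 counts in the HDAC8 libraries. All 3 HDAC8 libraries were higher, at 0.819 to 1.46 CPM against 0.186 to 0.813 CPM, but the log2 fold change of 1.27 (standard error 0.52, 95% interval 0.13 to 2.41) did not pass the test (adjusted p = 0.108). A gene on the opposite strand, ARHGEF39, overlaps CA9 and was at 34.1 CPM, and whether the counting used strand is not given in the sources used here. CA12 had 4, 4 and 2 counts in the EV libraries and 9, 2 and 1 in the HDAC8 libraries, at or near the floor, and was not tested. LOX, the founding lysyl oxidase, and ANKRD37 were also low, with wide intervals of -0.97 to 0.74 and -0.41 to 0.51, and each overlaps a more abundant gene on the opposite strand.

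**Figure D3:**
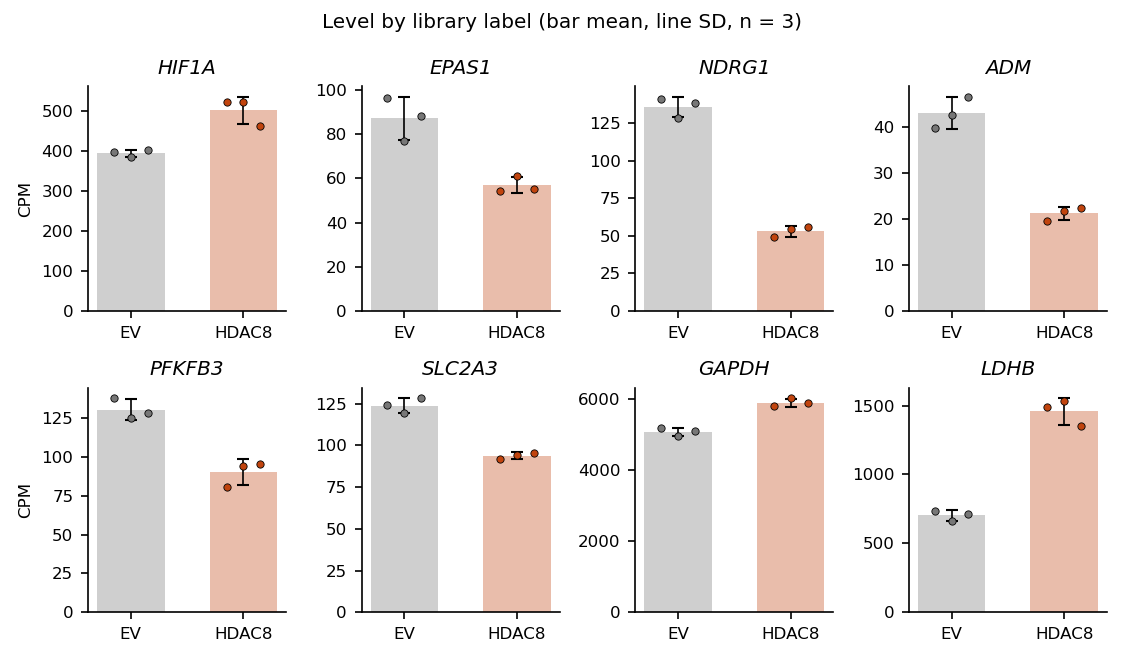
Levels in CPM on the y axis, by library label on the x axis, for 7 members with an adjusted p below 0.05 and for LDHB; bars are means, vertical lines the SD (n = 3) and points single libraries, and each y axis starts at 0. NDRG1, ADM, EPAS1, PFKFB3 and SLC2A3 were lower in all 3 HDAC8 libraries, and HIF1A, GAPDH and LDHB were higher in all 3.

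Of the 4 transporters that carry glucose in and lactate out, 3 were lower (75%, against 11.7% of all genes tested). The other hardly differed, and the median log2 fold change was -0.29. SLC2A3 (GLUT3, the high-affinity glucose carrier, ENSG00000059804, chr12:7919230-8019007) was at 124.1, 119.4 and 128.2 CPM in the EV libraries and 91.6, 94.4 and 95.6 CPM in the HDAC8 libraries. Both groups were tight and apart, and the level was 1.32-fold lower (log2 fold change -0.40, standard error 0.051, adjusted p = 0.000145). SLC16A1 (MCT1, a monocarboxylate carrier that works in both directions) was at 235.0, 221.5 and 231.5 CPM against 182.1, 181.7 and 166.0 CPM. It was 1.30-fold lower without overlap (log2 fold change -0.38, standard error 0.051, adjusted p = 0.000245), and its antisense partner SLC16A1-AS1 amounted to 9.43% of its level. SLC2A1 (GLUT1, the basal glucose carrier) had a log2 fold change of -0.21 (adjusted p = 0.0269), and it no longer passed without EV replicate 1, EV replicate 3, HDAC8 replicate 1 or HDAC8 replicate 2 (adjusted p up to 0.125). SLC16A3 (MCT4, the lactate exporter of glycolytic cells) was at 455.8, 446.7 and 478.3 CPM against 421.6, 473.9 and 483.2 CPM. Its groups overlapped and the 95% interval of its log2 fold change was -0.12 to 0.12, and CSNK1D on the opposite strand amounted to 38.9% of its level. The summed share of the 4 transporters among all counts was 0.116 ± 0.00208% (SD, n = 3) in the EV libraries and 0.102 ± 0.00559% in the HDAC8 libraries, without overlap.

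The phosphofructokinase regulators PFKFB3 and PFKFB4 make and remove fructose 2,6-bisphosphate, the activator of phosphofructokinase. Both were lower, as were 11.7% of all genes tested. PFKFB3 (ENSG00000170525, chr10:6144934-6254644), the kinase-dominant isoenzyme that promotes glycolysis, was at 137.5, 124.6 and 128.0 CPM in the EV libraries and 80.5, 94.2 and 95.3 CPM in the HDAC8 libraries. It was 1.45-fold lower without overlap, HDAC8 replicate 1 being the lowest (log2 fold change -0.53, standard error 0.070, adjusted p = 0.000188). PFKFB4 was at 73.2, 68.3 and 68.1 CPM against 57.1, 57.7 and 64.1 CPM. Its fall was smaller (log2 fold change -0.23, adjusted p = 0.0239) and did not pass without EV replicate 1, EV replicate 3, HDAC8 replicate 1 or HDAC8 replicate 2 (adjusted p up to 0.114).

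The 16 glycolytic enzymes themselves changed little. Of these, 2 were higher (GAPDH and TPI1), 2 were lower (the hexokinases HK1 and HK2) and 12 did not pass the test. The share of 12.5% in each direction is near the 11.1% higher and 11.7% lower of all genes tested. The log2 fold changes were above 0 for 11 enzymes and below 0 for 5, with a median of 0.04 and no value beyond -0.21 or 0.215. GAPDH (ENSG00000111640, chr12:6534512-6538374), which oxidises glyceraldehyde 3-phosphate and is often used as a reference gene, was at 5179, 4954 and 5087 CPM in the EV libraries and 5788, 6011 and 5867 CPM in the HDAC8 libraries. The groups did not overlap and GAPDH was 1.16-fold higher (log2 fold change 0.215, standard error 0.033, adjusted p = 0.000614). HK1, the hexokinase of most tissues, was at 357.4, 339.6 and 353.6 CPM against 294.2, 316.4 and 298.4 CPM. It was 1.16-fold lower without overlap (log2 fold change -0.21, standard error 0.046, adjusted p = 0.00594). HK2, the inducible hexokinase of muscle and tumours, had a log2 fold change of -0.17 (adjusted p = 0.0126), and TPI1, which interconverts the triose phosphates, one of 0.13 (adjusted p = 0.0294). HK2 no longer passed without EV replicate 1 or EV replicate 3 (adjusted p up to 0.0753), nor TPI1 without EV replicate 2, EV replicate 3, HDAC8 replicate 1 or HDAC8 replicate 2 (up to 0.106).

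Between these ends, PGK1, PGAM1 and PFKM lay wholly above the EV libraries and ALDOC wholly below without passing. In that order, their log2 fold changes were 0.10 (adjusted p = 0.0711), 0.11 (adjusted p = 0.102), 0.04 (adjusted p = 0.559) and -0.18 (adjusted p = 0.0511). SENP1, on the opposite strand of PFKM, amounted to 28.7% of the level of PFKM. LDHA, which turns pyruvate into lactate and is a classic HIF target, was at 1481 to 1575 CPM in the EV libraries and 1503 to 1576 CPM in the HDAC8 libraries. The 95% interval of its log2 fold change was -0.07 to 0.10, and that of the main aldolase ALDOA was -0.09 to 0.08. The enolases ENO1 and ENO2, pyruvate kinase PKM, GPI and the phosphofructokinase subunits PFKL and PFKP also overlapped between the labels. Taking the 16 enzymes as a sum, they made up 2.15, 2.10 and 2.11% of all counts in the EV libraries and 2.15, 2.20 and 2.28% in the HDAC8 libraries, which overlapped. Per kilobase of canonical transcript the order of the steps was the same under both labels at its top, with GAPDH at 3948 ± 87.8 and 4583 ± 87.9 CPM per kb (SD, n = 3), followed by ENO1 at 2065 and 2156 CPM per kb. At the other end, PFKM and ALDOC were the lowest of the enzymes, at 45.0 and 46.3 CPM per kb for PFKM and 54.4 and 48.2 for ALDOC.

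**Figure D4:**
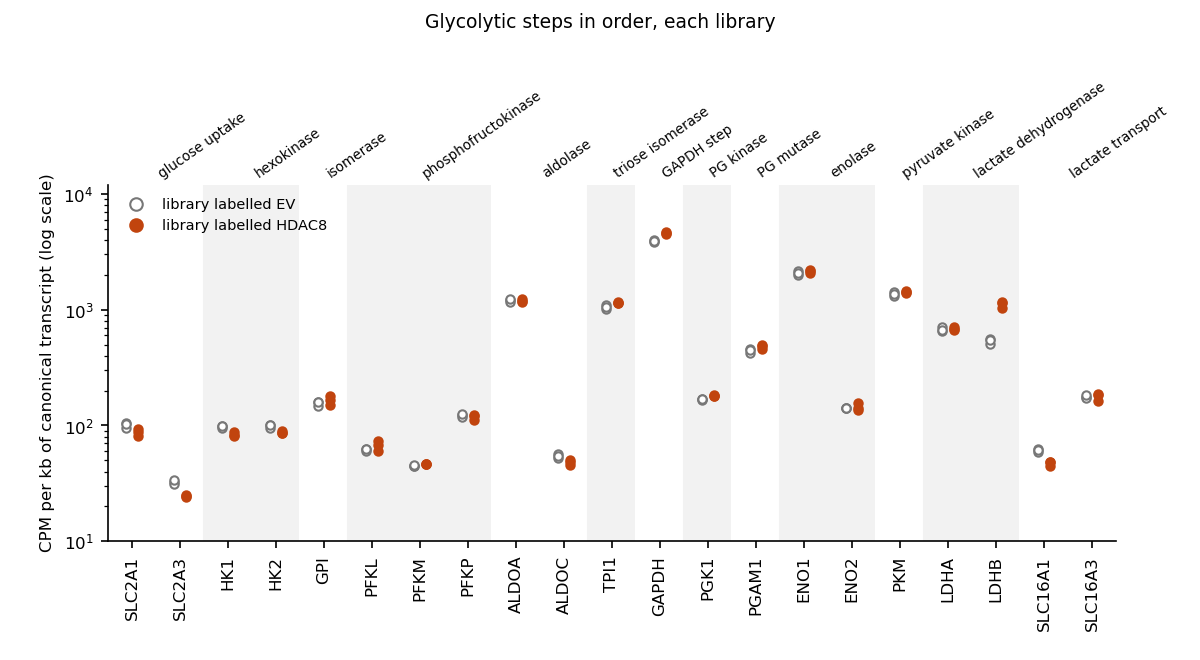
Genes of glucose uptake, glycolysis and lactate transport are on the x axis in the order of the pathway and the y axis, on a log scale, gives CPM per kb of canonical transcript, with 1 point per library. The HDAC8 libraries (filled) lie wholly below the EV libraries (open) for SLC2A1, SLC2A3, HK1 and HK2 at the entry of the pathway, and for ALDOC and SLC16A1. They lie wholly above them for PFKM, TPI1, GAPDH, PGK1 and PGAM1, and far above them for LDHB. ALDOC, PFKM, PGK1 and PGAM1 did not pass the test.

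Ratios within a library compare paralogs without reference to library size. Of 16 pairs, 10 did not overlap between the labels. The share of other gene pairs that do not overlap was not determined. Of single genes, 18.7% lay wholly above and 19.4% wholly below the EV libraries. An exact two-sided permutation test over the libraries gave p = 0.1 for each of these 10 pairs, and 0.16 after adjustment over the pairs. A p of 0.1 is the smallest that 3 against 3 (20 arrangements) allow. No ratio could therefore pass a threshold of 0.05, and the ratios are given as values. EPAS1 over HIF1A was 0.244, 0.201 and 0.220 in CPM in the EV libraries and 0.105, 0.118 and 0.120 in the HDAC8 libraries, a log2 difference of -0.95. LDHB over LDHA was 0.465, 0.447 and 0.475 against 0.974, 0.972 and 0.898, a log2 difference of 1.04. CA12 over CA9, both near the detection floor, differed by -0.82 without overlap. Smaller differences without overlap were found for SLC16A1 over SLC16A3 (-0.37), EGLN1 over EGLN2 (-0.28), P4HA2 over P4HA1 (-0.21), SLC2A3 over SLC2A1 (-0.19), PFKP over PFKL (-0.18), ALDOC over ALDOA (-0.17) and PFKFB4 over PFKFB3 (0.30). HK2 over HK1, ENO2 over ENO1 and BNIP3L over BNIP3 overlapped.

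**Figure D5:**
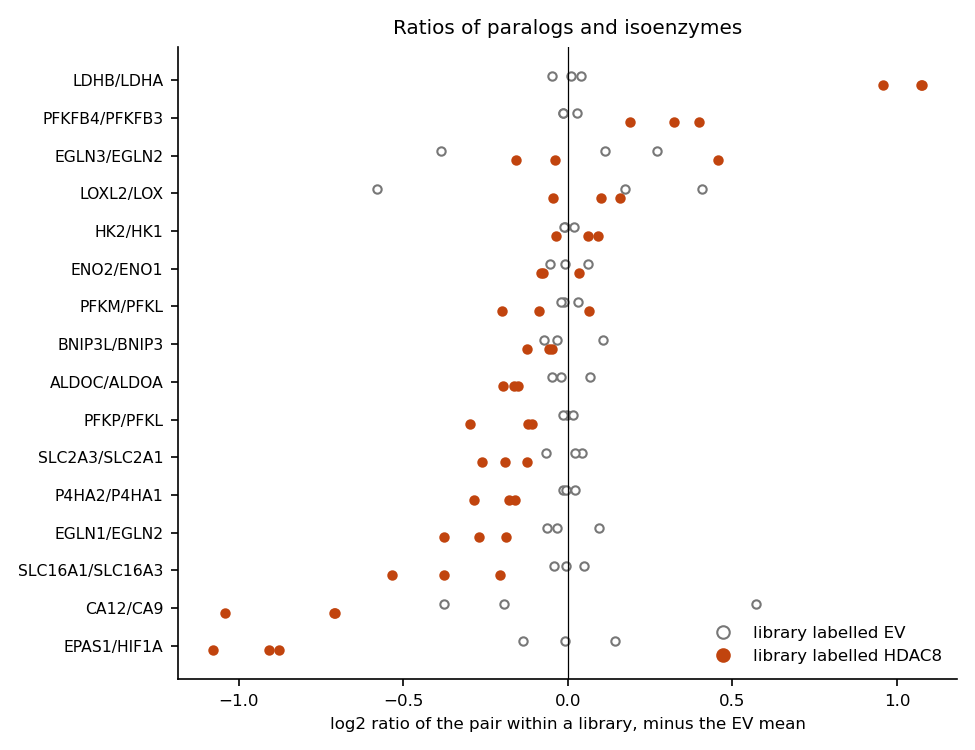
The x axis is the log2 ratio of the CPM of 2 related genes within a library (0.5 CPM added to each), minus the mean of the EV libraries, with 1 point per library and 1 pair per row. LDHB/LDHA lies at 1.04 in the mean of the HDAC8 libraries (filled) and EPAS1/HIF1A at -0.95, both clear of the EV libraries (open).

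Genes of the same pathways outside the 44 were counted from 4 further lists. Of 88 such genes, 72 were tested, and 5 were higher (6.94%, against 11.1% of all genes tested) and 9 were lower (12.5%, against 11.7%), with a median log2 fold change of -0.02. Over the 4 lists together, these shares were near or under those of all genes, but single lists differed. The 15 other glycolysis genes and isoenzymes tested held 3 higher (20%) and 1 lower gene (6.67%). The 14 other HIF pathway regulators held 1 and 1 (7.14% each), and the 32 other HIF targets 1 (3.1%) and 6 (18.75%). The 11 genes of pyruvate entry into the mitochondria held 0 and 1 (9.09%). With no test, the HDAC8 libraries lay wholly below the EV libraries for 19 of the 72 genes (26.4%, against 19.4% of all genes). They lay wholly above for 10 (13.9%, against 18.7%). LDHB (ENSG00000111716, chr12:21635342-21757857), the lactate dehydrogenase subunit that favours pyruvate formation, was at 732.5, 661.7 and 714.8 CPM in the EV libraries and 1491, 1532 and 1350 CPM in the HDAC8 libraries. This 2.07-fold rise (log2 fold change 1.05, standard error 0.055, adjusted p = 8.53e-08) brought LDHB from 540 ± 28.3 to 1119 ± 73.2 CPM per kb (SD, n = 3), past LDHA, which was at 679 ± 21.8 and 686 ± 16.4 CPM per kb. The genes around LDHB moved with it: of 9 genes within 2 Mb with at least 10 CPM, 9 were higher, with a median log2 fold change of 0.98, and the part of this stretch in the level of LDHB was not tested. For GAPDH, on the same chromosome arm, the median of 35 such genes was 0.06, with 6 higher and 1 lower.

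Next in size among the called genes of that list were GAPDHS, the GAPDH isoenzyme of sperm, at 0.66 (adjusted p = 0.000239), and PGM1, which links glycolysis to glycogen, at 0.32 (adjusted p = 0.00105). Among the regulators, CITED2, which competes with HIF for the coactivators EP300 and CREBBP, was higher with 7.34, 7.59 and 9.44 CPM in the EV libraries and 16.7, 13.3 and 12.5 CPM in the HDAC8 libraries (log2 fold change 0.81, adjusted p = 0.00202). ARNT2, a partner subunit related to ARNT, was lower (-0.27, adjusted p = 0.00331). The 3 other HIF targets with the largest changes were all lower, namely MET, the HGF receptor, at -0.58 (adjusted p = 0.000182), NAMPT, which makes NAD precursors, at -0.37 (adjusted p = 0.00427), and DDIT4, an inhibitor of mTORC1, at -0.33 (adjusted p = 0.00039). PDK3, a pyruvate dehydrogenase kinase, was lower by a log2 fold change of -0.26 (adjusted p = 0.0334), a call that ended with DESeq2 and without EV replicate 1, EV replicate 3, HDAC8 replicate 2 or HDAC8 replicate 3 (adjusted p up to 0.135).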

How the data were processed

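Total RNA of 6 SK-MEL-28 libraries was analysed, 3 labelled EV and 3 labelled HDAC8, grouped by the sample labels and matched to the columns of the count table by title, and 0 other columns held values of samples. Kits differ between the sources: Aurum, Ribo-Zero Plus and directional NEBNext in the labels, but Direct-zol and TruSeq in the methods. Estimated counts, not normalised, were deposited by the authors for each Ensembl gene and library, after trimming with Trimmomatic, alignment with STAR and quantification with RSEM, and the submitters' processing notes name GRCh38. The annotation and the use of strand in counting are not given in the sources used here. Reads matching more than 1 gene are split by RSEM, and 22 of the 44 genes had a count that was not whole (GAPDH, LDHA and HIF1A among them), so genes with near-identical copies are uncertain. A deposited table of the authors' own comparison holds log2 fold changes, p-values and group values and was not used.

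Rounded estimated counts were fitted with edgeR 4.0.16 under R 4.3.3 (low counts removed by filterByExpr, TMM scaling, quasi-likelihood F test, no block). Benjamini-Hochberg adjustment ran over 16195 genes, and genes with an adjusted p below 0.05 were called. The standard error of a log2 fold change was derived from its F statistic, and CPM values use TMM library sizes. Replicates of a group differed by more than sampling noise (chi-square per degree of freedom 4.53 to 17.2), so none was counted as a copy. GENCODE 44 (GRCh38) gave gene positions and canonical transcript lengths by Ensembl identifier, and promoter windows are from RefSeq. Ratios of paralogs used CPM with 0.5 added and an exact permutation test. Values in every library are given for the HIF subunits and oxygen sensors, for members past both the p and the 0.58 fold threshold, in each role for the 2 called members with the largest change and the member with the highest mean CPM, and for members not tested, and the other lists name up to 3 called genes each. The members and lists were chosen with earlier results of these data known. The scripts were tested on simulated counts. Alternatives were DESeq2 1.42.0, upper-quartile normalization, no filter or at least 10 counts in every library, the replicate number as a block, each library left out, other call rules, and 0.1 or 2 added to CPM for the ratios.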

Additional observations from a re-analysis of the deposited data

How the results depend on the processing

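Of the 17 members called, 10 were called in each of 12 fits (DESeq2, upper-quartile normalization, no filter on low counts, at least 10 counts in every library, the replicate block and each of 6 libraries left out, beside the reported fit): HIF1A and GAPDH higher, and EPAS1, NDRG1, ADM, P4HA2, SLC2A3, SLC16A1, PFKFB3 and HK1 lower. The remaining 7 lost their call at least once, TPI1 also with no filter, with no change of direction. Calls were gained by ALDOC in 5 fits (among them upper-quartile normalization and both other filters), PGK1 in 3 (among them DESeq2) and PFKL without HDAC8 replicate 1. With a library left out, 2 to 4 members were higher and 8 to 15 were lower, in place of 3 and 14, with 9 lower without EV replicate 1 and 8 without EV replicate 3 (7.61% and 7.80% of all genes), and 5 to 9 genes of the other lists were lower in place of 9. These fits use fewer libraries. The call rules changed the counts most: with a log2 fold change beyond 0.58 in either direction, at adjusted or unadjusted p, 0 or 1 members were higher and 3 or 3 lower, 659 or 855 of all genes were higher in place of 1790 and 559 or 705 lower in place of 1891, and in the other lists 3 or 3 genes were higher in place of 5 and 1 or 1 lower. The ratio of CA12 over CA9, both near the detection floor, was -0.82 on the log2 scale with 0.5 CPM added, -1.36 with 0.1 and -0.36 with 2, and 126 of 128 ratio alternatives stayed within the spread between replicates. Of 220 alternatives for 20 called named genes, 209 kept the call, 11 lost it (EGLN1, PFKFB4 and PDK3) and 0 reversed, and in 65 for 6 named genes without a call, 0 passed the threshold.

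Same-numbered EV and HDAC8 libraries showed no shared deviation from their group means (correlations of -0.07, -0.09 and 0.01 across genes), so the numbers were not taken as a pairing. With the replicate block, 2 members were higher and 14 lower, TPI1 being the call lost, and 1496 of all genes were higher and 1587 lower, with 5 and 10 in the other lists. HDAC8 had a log2 fold change of -0.02 under the block, and between -0.16 and 0.08 with a library left out. Low counts limit CA12, which was not tested, EGLN3 and LOX, whose intervals span 0, and CA9, whose interval does not but whose adjusted p missed the threshold.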

Other observations

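In the other pathway lists, 5 called genes fell outside the naming rule and are given here, chosen after their values were seen. BHLHE41, a circadian repressor induced by HIF, was at 325.0, 308.3 and 325.8 CPM in the EV libraries and 406.4, 391.8 and 392.3 CPM in the HDAC8 libraries (log2 fold change 0.31, adjusted p = 0.000278 in edgeR). It lies on chromosome 12, as does LDHB, and all 16 genes within 2 Mb of it with at least 10 CPM were higher, with a median log2 fold change of 0.97, so BHLHE41 rose less than its neighbours. PLOD2, which hydroxylates collagen lysine, had a log2 fold change of -0.20 (adjusted p = 0.0178), FUT11, a fucosyltransferase, one of -0.31 (adjusted p = 0.00734), and LIMCH1, an activator of myosin, one of -0.25 (adjusted p = 0.0476). PFKFB2, the heart isoenzyme of the phosphofructokinase regulators, had -0.23 (adjusted p = 0.0255), next to -0.23 for PFKFB4 and -0.53 for PFKFB3. PLOD2 lost the call without EV replicate 1 or 3 (adjusted p up to 0.0821), and PFKFB2 also without HDAC8 replicate 2 (up to 0.118). LIMCH1 lost it with DESeq2 and without EV replicate 1, EV replicate 2, HDAC8 replicate 1 or HDAC8 replicate 3 (up to 0.197).

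Several HIF targets with few counts were high in HDAC8 replicate 1 alone, as values chosen after they were seen. STC2, a secreted glycoprotein, had 3, 8 and 8 counts in the EV libraries and 77, 2 and 0 in the HDAC8 libraries, and CXCR4, a chemokine receptor, had 0, 10 and 14 against 102, 1 and 0. PPP1R3C, a glycogen-targeting phosphatase subunit, had 4, 5 and 2 against 15, 3 and 1. HDAC8 replicate 1 was also the deepest library, with 29822917 counts, and many members had their highest raw count there. In CPM, which are scaled for depth, STC2 was at 2.61 there against 0.0987 and 0 in HDAC8 replicates 2 and 3. CXCR4 was at 3.46 against 0.0494 and 0. Of the members with few counts, EGLN3, CA9 and CA12 had their highest CPM there, 1.02, 1.46 and 0.306, and LOX did not. CA9 was also at 1.33 CPM in HDAC8 replicate 2. CXCR4, EGLN3, CA9 and LOX did not pass the test, and STC2, PPP1R3C and CA12 were not tested.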
